A study of Mus musculus with 6 samples.

Results

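The genes described here encode the enzymes that build the sugar chains on which sialyltransferases act: the galactosyl, N-acetylglucosaminyl (GlcNAc), N-acetylgalactosaminyl (GalNAc) and fucosyl transferases. They were taken by gene symbol, as all genes named B4galt, B3galt, B3gnt, B4galnt, Mgat, Galnt, Gcnt or Fut with a number, except for 3 (Fut4, Fut7 and Gcnt1). That gave 63 of the 57462 genes in the files, of which 37 reached the level needed for a test (TPM 1 or above in at least 3 of the 6 libraries). TPM is a relative abundance of transcripts that is corrected for gene length, so levels of different genes can be compared. RNA was sequenced from 6 mouse tumours of the ovarian cancer line HM1, in what the design text calls an early tumour model. The groups were 3 shControl tumours, labelled wild type for genotype and treatment, and 3 shST3GAL3 tumours, labelled ST3GAL3 knockdown, the prefix sh standing for a short hairpin RNA. The sources used here do not give the number of hairpins or clones, the host strain or its age, nor whether each tumour had its own mouse, so the p-values here cover the spread between samples, which may be technical. The comparison asks how the transcripts of whole tumours, host cells included, differed between the groups.

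As background, N-linked chains start from a shared mannose core that the MGAT enzymes branch with GlcNAc, and mucin-type O-linked chains start when a GALNT enzyme puts GalNAc on a serine or threonine. GCNT enzymes branch the O-linked cores, and B4GALT and B3GNT enzymes then alternate to lay down galactose and GlcNAc. ST3GAL3 adds sialic acid to the galactose at the end of such a chain, preferring the linkage that beta-1,3-galactosyltransferases make (a type 1 chain) but also using the beta-1,4 linkage (a type 2 chain). Fucosyltransferases decorate the same chains, and B4GALNT1 and B3GALT4 work on glycolipids to make gangliosides.

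St3gal3 itself, the target of the hairpin, had 54.5% of its shControl mean in the shST3GAL3 tumours (13.9 ± 0.127 and 7.57 ± 0.838 TPM, SD, n = 3 each), and all 3 values lay below those of shControl (two-sided exact permutation p = 0.1, the smallest that 3 against 3 allows). Its log2 fold change was -0.80 (SE 0.11, limma adjusted p = 0.348). Between 13930 and 14762 genes per library reached a TPM of 1, and the number of reads is unknown. Library shST3GAL3 1 stood apart from the rest. Its summed level of 10 fibroblast and matrix markers was 7395 TPM, against 2273 and 1568 TPM in the other shST3GAL3 libraries and 841 to 1357 TPM in shControl. All 10 fibroblast genes and all 8 endothelial genes had higher means in shST3GAL3, with endothelial sums of 93.2 to 245 TPM there and 48.2 to 66.8 TPM in shControl. This was not particular to them. All tested macrophage, T and NK cell, and B and plasma cell markers had positive log2 fold changes too. So did all tested genes of the adipose and muscle, red blood cell and handling stress lists, against 52.7% of all genes. Positive values were found for 3 of 5 tested neutrophil markers and 2 of 5 tested epithelial tumour markers. The 8 macrophage markers summed to 895 to 1045 TPM in shControl and 1057 to 1878 TPM in shST3GAL3, and 7 B and plasma cell markers to 5.62 to 52.9 TPM and 42.5 to 4057 TPM. The 9 T and NK cell markers summed to 71.5 to 100.72 TPM in shControl and 88.5 to 181 TPM in shST3GAL3, 6 neutrophil markers to 64.4 to 122 and 53.1 to 296 TPM, and 10 genes of handling stress to 399 to 424 and 479 to 737 TPM. In the adipose and muscle list (6 genes) the sums ran from 7.30 to 72.3 and from 53.8 to 280 TPM, and in the red blood cell list (5 genes) from 121 to 164 and from 185 to 318 TPM. Of 8 epithelial tumour markers, Muc16 was listed at 0 in every library and Epcam and Krt7 were under 1.2 TPM, while Krt8, Krt18 and Krt19 carried the sum, which was 3208 to 3690 TPM in shControl, 2700 and 3213 TPM in shST3GAL3 2 and 3, and 1779 TPM in shST3GAL3 1. The other tested markers of that list did not follow the keratins, with Cdh1 at 2.44 to 3.14 TPM in shControl and 2.58 to 9.46 TPM in shST3GAL3, highest in shST3GAL3 1, and Msln at 15.4 to 16.8 and 13.6 to 19.8 TPM. In whole tumours, fewer cells of a type and less RNA per cell cannot be told apart, and the part of these shifts in the values below was not tested.

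**Figure D1:**
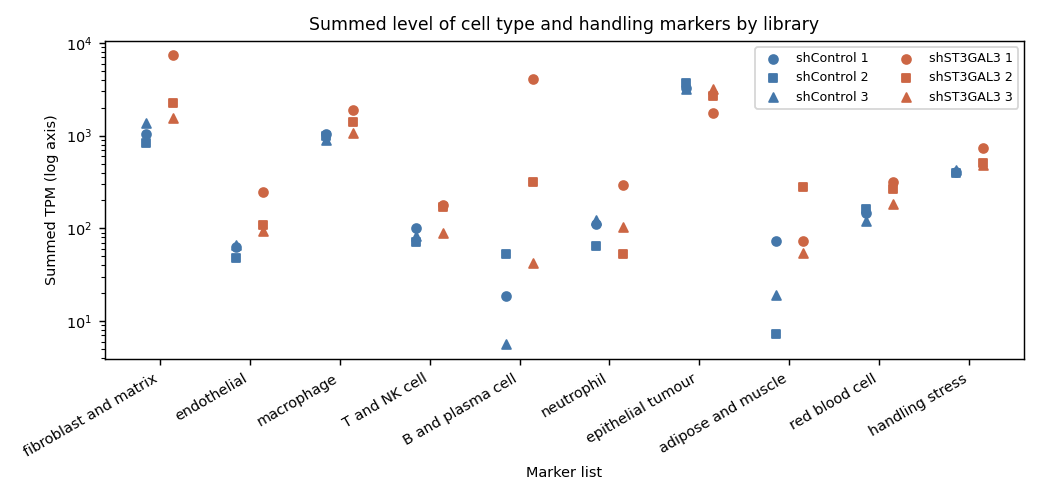
Summed TPM (log axis) of each marker list in each of the 6 libraries, with shControl in blue and shST3GAL3 in orange, and the marker shape giving the replicate. Library shST3GAL3 1 has the highest fibroblast and matrix sum (7395 TPM) and the lowest epithelial tumour sum (1779 TPM).

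The tumours expressed members of every family, at very different levels. Highest were Fut8, which adds the core fucose of N-linked chains (112 TPM in shControl), B3gnt3, which extends O-linked core 1 chains (89.8 TPM), and Galnt1, a broadly acting starter of O-linked chains (85.4 TPM). The lowest tested gene was B4galt4, at 1.34 TPM in shControl. Most families were carried by 1 or 2 members. Fut8 made up 87.7% of the summed fucosyltransferase level in shControl and 87.1% in shST3GAL3, Gcnt2 81.7% and 84.8% of the Gcnt level, B4galnt1 99.2% and 98.2% of the B4galnt level, and B3gnt3 62.9% and 60.9% of the B3gnt level. Galnt1 and Galnt2 together made up 58.9% and 58.1% of the Galnt level. The Mgat family was spread most evenly, with Mgat4b, its highest member, at 26.8% in both groups. The share of B3galt6 in the B3galt level was 57.2% in shControl and 50.1% in shST3GAL3, and that of the Mgat pair Mgat4b and Mgat3 52.6% and 47.7%.

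**Figure D2:**
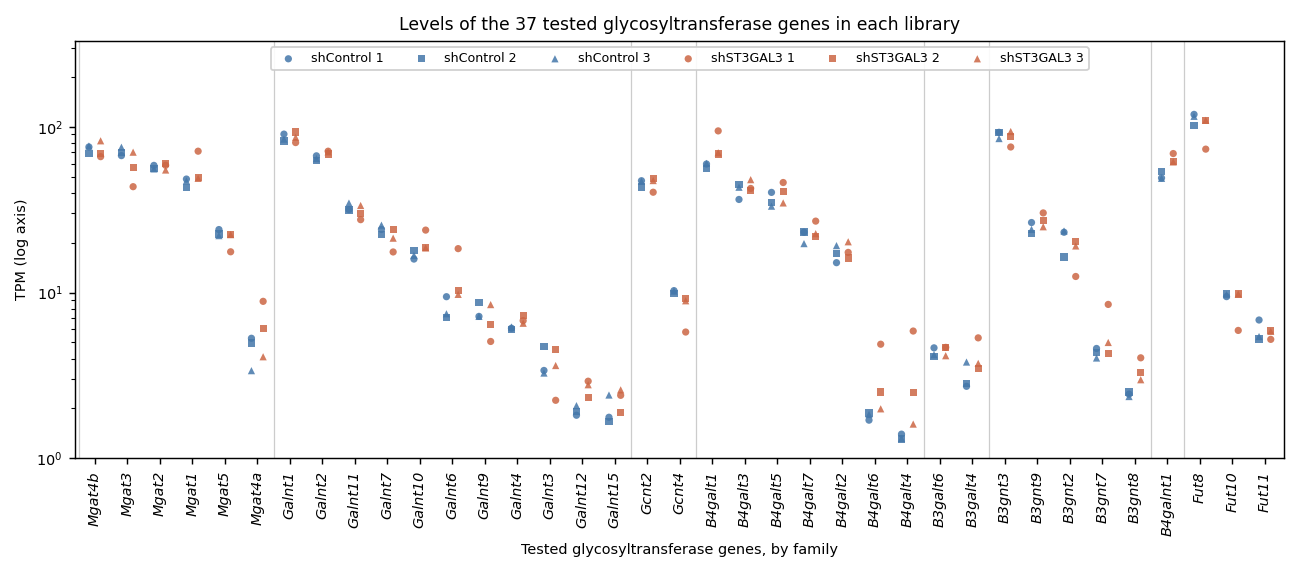
TPM on a log axis of the 37 tested genes in each library, grouped by family and ordered by mean level within it, with 3 shControl points in blue and 3 shST3GAL3 points in orange per gene. Levels run from near 1 TPM (B4galt4) to over 100 TPM (Fut8), and the circle of shST3GAL3 1 often lies away from the other points of its group.

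The other 26 genes did not reach the filter, and 22 of them were under 1 TPM in every library. Mgat4c, Mgat4d, Mgat4f and Mgat5b were listed at 0 throughout. The enzymes that make type 1 chains were among the low genes, named here after their values were seen. B3galt1 was listed at 0 to 0.06 TPM, B3galt2 at 0.01 to 0.05 TPM and B3galt5 at 0.06 TPM in each shControl library and 0.08, 0.19 and 0.37 TPM in shST3GAL3. The B3galt5 groups did not overlap but were under 1 TPM throughout (log2 fold change 0.19, limma adjusted p = 0.587 in a fit without the filter). The tested B3galt genes were B3galt6, which acts on the linker of proteoglycans, and B3galt4, the ganglioside enzyme. The type 2 chain enzymes of the B4galt family were all tested. Fut1 and Fut2, which add the fucose of blood group H, were listed at 0 to 0.07 TPM and 0.08 to 0.36 TPM. Fut9, which makes the Lewis x structure, was listed at 0 to 0.02 TPM, and B3gnt6, the core 3 enzyme of O-linked chains, at 0.02 to 0.11 TPM. The groups overlapped for Fut1, Fut2, Fut9 and B3gnt6.

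Comparing shST3GAL3 with shControl tumours, no gene of the 37 passed the test. The call was 0 of 37 genes at a limma adjusted p under 0.05, against 0.00704% of all 14207 genes tested, and the lowest adjusted p was 0.38. At an unadjusted p under 0.05, 3 genes were higher (8.11%, against 9.19% of all genes) and 0 were lower (against 3.78%). The 3 were B4galnt1, B4galt1 and B3gnt8, and the count was 1 higher and 0 lower without any 1 shControl library (against 4.41% to 5.73% and 1.72% to 2.43% of all genes). It was 7 higher and 1 lower without shST3GAL3 3 (against 12.7% and 5.46%), and 5 higher and 1 lower with library weights (against 12.9% and 4.83%). The median log2 fold change was 0.08 over the 37 genes and 0.01 over all genes, with 23 positive values, or 62.2% against 52.7% of all genes. The fold changes ran from -0.34 for Mgat3 to 0.76 for B4galt4.

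The groups did not overlap for 12 genes (32.4%, against 23.5% of all genes), with shST3GAL3 higher for 11 (29.7%, against 15.7% of all genes), and lower for 1, Gcnt4 (2.70%, against 7.76%). The 11 were B4galt1, B4galt4, B4galt6, B4galnt1, B3gnt8, Galnt2, Galnt4, Galnt6, Galnt10, Galnt12 and Mgat1. No test was made of these shares. They depend on the scaling of the libraries: with median-ratio scaling 7 genes lay above (against 12.4% of all genes) and 2 below (against 11.1%), and with quantile normalization 6 above (against 10.5%) and 3 below (against 13.5%). B4galt1, B4galt4, B4galnt1, B3gnt8 and Galnt12 were above under all 3 scalings. Without shST3GAL3 1 the same 11 genes and Gcnt2 lay above (12 genes, against 21.2% of all genes) and Gcnt4 below (against 9.38%). The count below, 1 as deposited, was 3 without shControl 2 (against 12.3% of all genes), 2 without shControl 3 (10.9%), 2 without shST3GAL3 2 (13.3%) and 4 without shST3GAL3 3 (17.0%), and the count above was 16 without shST3GAL3 3 (23.1%). The share of all genes without overlap was larger in each of these than with all 6 libraries.

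**Figure D3:**
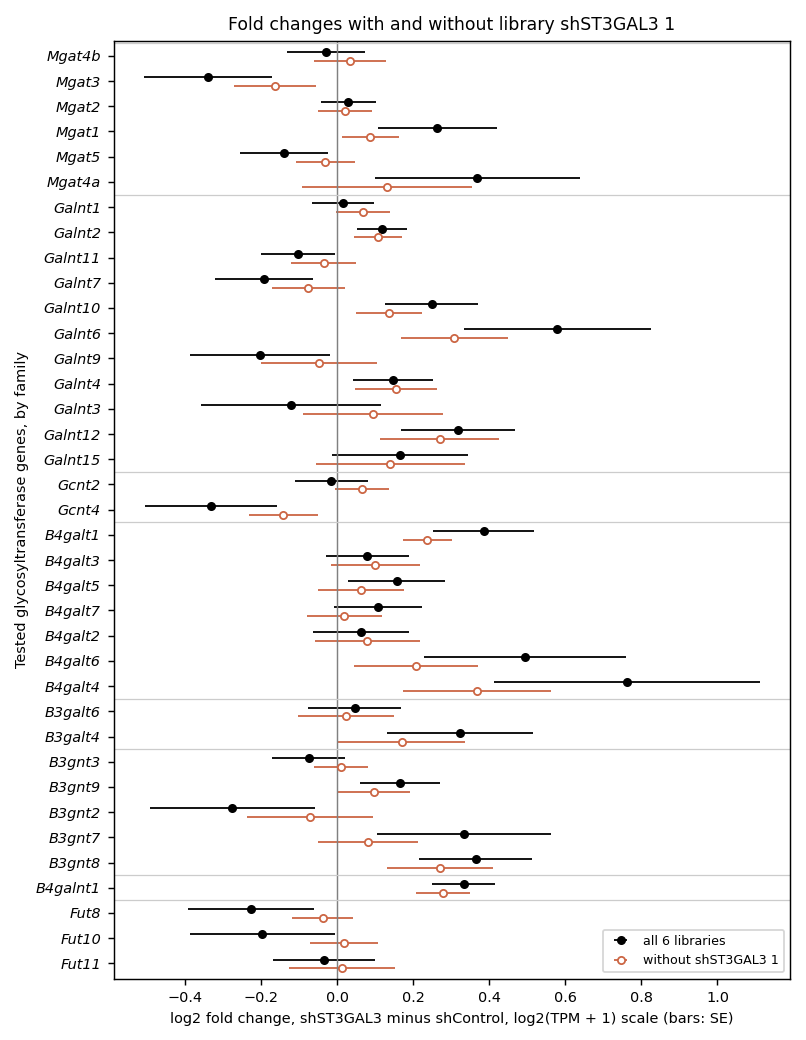
Log2 fold change (shST3GAL3 minus shControl, log2(TPM + 1) scale) with its SE for the 37 tested genes by family, from all 6 libraries (filled) and without shST3GAL3 1 (open). B4galt4 goes from 0.76 to 0.37 and Fut8 from -0.23 to -0.04, and no gene passed the test in either fit.

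One library lay farthest from shControl for most of these genes. In shST3GAL3 1, 16 of the 37 genes had their highest value of all 6 libraries (43.2%, against 28.6% of all genes) and 15 their lowest (40.5%, against 36.7%), 31 in all (83.8%, against 65.3%). Its value lay above the shControl range for 19 genes (51.4%, against 35.6%) and below it for 15 (40.5%, against 41.4%). Its deviations from the shControl mean ran from -0.71 for Gcnt4 to 1.55 for B4galt4 on the log2(TPM + 1) scale, and their median size was 0.42, against 0.29 over all genes. In shST3GAL3 2 and 3 the median size was 0.11 and 0.10, against 0.13 in each over all genes. A deviation of more than 0.5 in either direction was found for 16 genes in shST3GAL3 1 (43.2%, against 29.1% of all genes), for 1, B4galt4, in shST3GAL3 2 (2.70%, against 11.7%), and for 0 in shST3GAL3 3 (against 7.39%). In shST3GAL3 2 and 3, 18 of 37 genes each lay above the shControl range (48.6%, against 34.0% and 38.7% of all genes), and 4 and 3 lay below it (10.8% and 8.11%, against 23.2% and 18.4%).

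**Figure D4:**
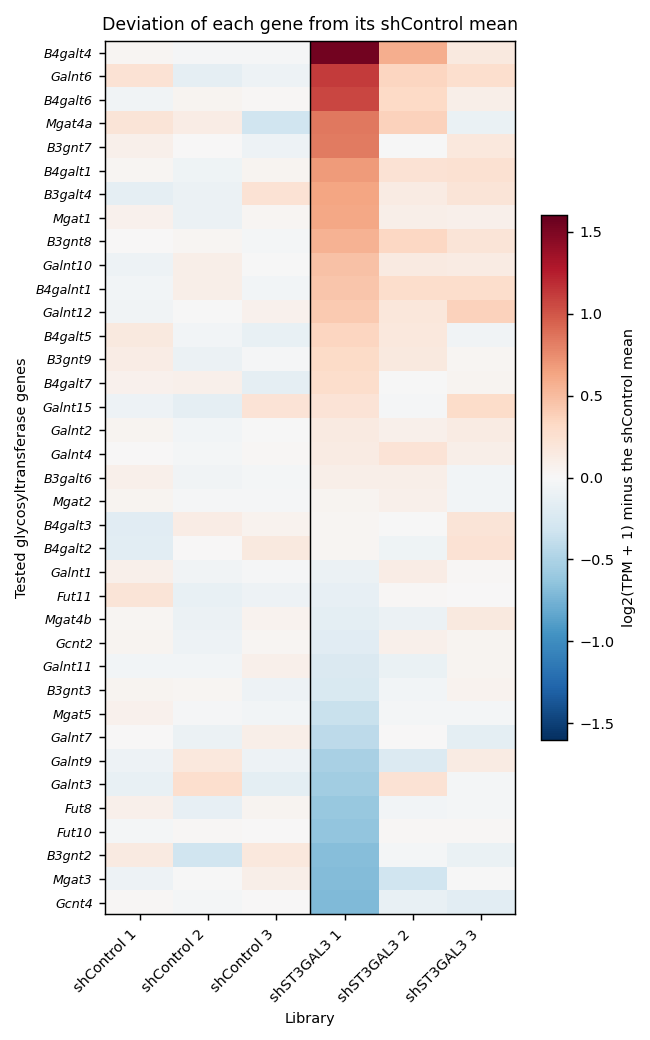
Deviation of each tested gene from its shControl mean, log2(TPM + 1), in each library, with genes ordered by the value in shST3GAL3 1. The column of shST3GAL3 1 runs from 1.55 (B4galt4) to -0.71 (Gcnt4), and the columns of the other 5 libraries are paler.

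The enzymes that add galactose in beta-1,4 linkage had positive log2 fold changes for all 7 members, from 0.06 to 0.76, with none past the test, though that of B4galt2 turned negative with quantile normalization (-0.0011), without shControl 1 (-0.02) and without shST3GAL3 3 (-0.02), and that of B4galt3 without shControl 1 (-0.01). Summed over the family, the level was 178, 180 and 179 TPM in shControl 1, 2 and 3 and 238, 194 and 199 TPM in shST3GAL3 1, 2 and 3. The sums did not overlap, with shST3GAL3 1 highest, and the same held with median-ratio scaling and with quantile normalization. B4galt1, the main enzyme that places galactose on GlcNAc, had values of 59.6, 55.9 and 60.1 TPM across the shControl libraries, and the shST3GAL3 libraries had 94.4, 68.6 and 69.7 TPM. All shST3GAL3 values were higher, and shST3GAL3 1 was far above the other 2. The log2 fold change was 0.38 (SE 0.13, limma adjusted p = 0.38), and 0.24 (SE 0.06) without shST3GAL3 1. Its share of the family level was 31.2% to 33.7% in shControl and 35.1% to 39.6% in shST3GAL3.

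B4galt4 and B4galt6 were low in shControl and carried the largest differences of the family. B4galt4, which acts on sulfated GlcNAc, had 1.40, 1.31 and 1.32 TPM in shControl and 5.86, 2.5 and 1.61 TPM in shST3GAL3 1, 2 and 3. The shControl values lay close together, and those of shST3GAL3 were spread more than the difference between the group means. The fold change of 0.76 (SE 0.35) became 0.37 (SE 0.19) without shST3GAL3 1. B4galt6, one of the pair that makes lactosylceramide, the root of most glycolipids, had 1.70, 1.88 and 1.84 TPM in shControl and 4.88, 2.51 and 1.99 TPM in shST3GAL3 (log2 fold change 0.49, SE 0.27, and 0.21 without shST3GAL3 1). Its partner B4galt5, the more abundant of the pair, overlapped between groups, at 33.2 to 40.2 TPM and 34.7 to 46.1 TPM. B4galt7, which starts the linker of proteoglycans, and B4galt2 and B4galt3 overlapped too, with fold changes of 0.11, 0.06 and 0.08.

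The bases before the start are shown for 3 genes picked by their values here. These are B4galt1 and B3gnt8, with an unadjusted limma p under 0.05, and Gcnt4, the gene with all shST3GAL3 values lower. Each run is the 250 bases before an annotated start, 5′ to 3′ on the strand of the gene, from RefSeq on GRCm38.p6 (the expression files are on GRCm39), and Gcnt4 has 2 annotated starts. B4galnt1 had no entry in the table. Capitals mark matches to GGGCGG, the GC box bound by Sp1 family factors, on either strand (CCGCCC where the match is on the other strand), and to TTCNNNGAA, the GAS element bound by STAT factors, which reads alike on both strands.
B4galt1, chr4:40853985-40854234, minus strand: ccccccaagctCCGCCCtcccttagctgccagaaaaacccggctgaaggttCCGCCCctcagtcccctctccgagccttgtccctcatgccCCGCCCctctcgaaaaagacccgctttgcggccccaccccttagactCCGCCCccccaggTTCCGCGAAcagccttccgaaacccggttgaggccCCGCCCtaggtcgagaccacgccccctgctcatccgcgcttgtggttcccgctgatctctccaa
B3gnt8, chr7:25627374-25627623, plus strand: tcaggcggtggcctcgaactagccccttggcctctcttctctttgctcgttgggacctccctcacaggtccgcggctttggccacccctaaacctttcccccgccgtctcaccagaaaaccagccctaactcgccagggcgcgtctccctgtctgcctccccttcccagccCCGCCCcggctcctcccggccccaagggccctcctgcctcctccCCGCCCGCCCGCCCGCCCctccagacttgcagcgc
Gcnt4, first start, chr13:96924094-96924343, plus strand: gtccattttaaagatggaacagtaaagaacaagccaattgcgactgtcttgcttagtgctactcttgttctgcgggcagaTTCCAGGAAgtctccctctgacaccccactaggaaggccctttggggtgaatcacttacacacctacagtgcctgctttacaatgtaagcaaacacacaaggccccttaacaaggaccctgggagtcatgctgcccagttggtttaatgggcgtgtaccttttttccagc
Gcnt4, second start, chr13:96924463-96924712, plus strand: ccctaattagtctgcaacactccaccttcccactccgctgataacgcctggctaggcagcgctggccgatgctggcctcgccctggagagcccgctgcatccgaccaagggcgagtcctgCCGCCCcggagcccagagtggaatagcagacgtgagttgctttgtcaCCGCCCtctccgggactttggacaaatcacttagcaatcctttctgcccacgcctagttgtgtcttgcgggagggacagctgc

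The B4galt1 window held 5 GC boxes and 1 GAS match, and the B3gnt8 window 5 GC boxes, 4 of which overlap one another, and 0 GAS matches. For Gcnt4 the first window held 1 GAS match and 0 GC boxes, and the second window 2 GC boxes and 0 GAS matches. Of the 37 tested genes, 27 had a window that was searched. Any windows of tested genes on 1 chromosome were left out, while that chromosome was kept in the count over all windows. A GC box was found in 23 of their 39 windows, and in 32.7% of all 32851 windows in the table. A GAS match was found in 4 of the 39 windows, and in 7.02% of all. The 39 windows belong to genes that passed the level filter, while the 32851 were not chosen by level. The shares are therefore not from like sets, and no test was made of them. These are matches of letters and say nothing of binding.

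B4galnt1, which adds GalNAc to make the gangliosides GM2 and GD2, had the smallest unadjusted p of the 37 genes. The shControl libraries had 49.1, 53.7 and 48.8 TPM, and the shST3GAL3 libraries, in order, 68.9, 61.6 and 61.3 TPM. Every shST3GAL3 value was above every shControl value, under all 3 scalings. The log2 fold change was 0.33 (SE 0.08, limma adjusted p = 0.38, unadjusted 0.00563), and 0.28 (SE 0.07) without shST3GAL3 1. Its exons overlap those of Slc26a10 on the other strand in GENCODE M21, and whether the counting used strand is not given in the sources used here. Slc26a10 stood at 1.97 to 3.43 TPM in shControl and 1.32 to 3.00 TPM in shST3GAL3, far below B4galnt1. The other members of this family stayed under the filter. Of these, B4galnt2, which makes the Sda antigen on chains that already carry sialic acid, was listed at 0.14, 0.23 and 0.38 TPM in shControl and 0.94, 0.43 and 0.66 TPM in shST3GAL3, without overlap but under 1 TPM throughout (log2 fold change 0.42, limma adjusted p = 0.587 in a fit without the filter). B4galnt3 and B4galnt4 were at or under 0.60 TPM.

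B3galt4, which adds galactose to GM2 to make GM1, measured 2.72, 2.83 and 3.81 TPM in shControl and 5.33, 3.47 and 3.74 TPM in shST3GAL3. The groups overlapped, with shST3GAL3 1 highest (log2 fold change 0.32, SE 0.19, and 0.17 without shST3GAL3 1). B3galt6 overlapped too, with 4.64, 4.13 and 4.22 TPM in shControl and 4.67, 4.68 and 4.16 TPM in shST3GAL3, and its fold change of 0.05 (SE 0.12) was -0.07 with quantile normalization.

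Among the enzymes that extend chains with GlcNAc, 3 of 5 tested genes had positive fold changes and 2 negative ones. B3gnt8, which lengthens the repeats of galactose and GlcNAc on N-linked chains, had 2.44, 2.51 and 2.36 TPM in shControl and 4.04, 3.31 and 2.98 TPM in shST3GAL3 1, 2 and 3. The groups did not overlap, and the log2 fold change was 0.36 (SE 0.15, limma adjusted p = 0.384), or 0.27 (SE 0.14) without shST3GAL3 1. Its exons overlap Bckdha on the other strand, and Bckdha was the more abundant of the pair, at 35.1 to 35.3 TPM in shControl and 35.6 to 40.3 TPM in shST3GAL3, also without overlap. B3gnt2, the main enzyme for the same repeats, is named after its values were seen, with 23.1, 16.4 and 23.5 TPM in shControl and 12.5, 20.3 and 19.1 TPM in shST3GAL3. Its groups overlapped, and the fold change of -0.28 (SE 0.22) was -0.07 without shST3GAL3 1. B3gnt7, which acts in keratan sulfate, stood at 8.48 TPM in shST3GAL3 1 against 4.27 and 5 TPM in shST3GAL3 2 and 3 and 4.60, 4.33 and 4.03 TPM in shControl (log2 fold change 0.33, SE 0.23, limma adjusted p = 0.517, and 0.08 without shST3GAL3 1). B3gnt3 overlapped between the groups, with 92.5, 92.0 and 84.8 TPM in shControl and 75.5, 87.3 and 93.5 TPM in shST3GAL3 (log2 fold change -0.08, SE 0.10, and 0.01 without shST3GAL3 1). B3gnt9 overlapped as well, at 24.4 ± 1.90 and 27.5 ± 2.64 TPM (0.16, SE 0.10, and 0.10 without shST3GAL3 1).

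**Figure D5:**
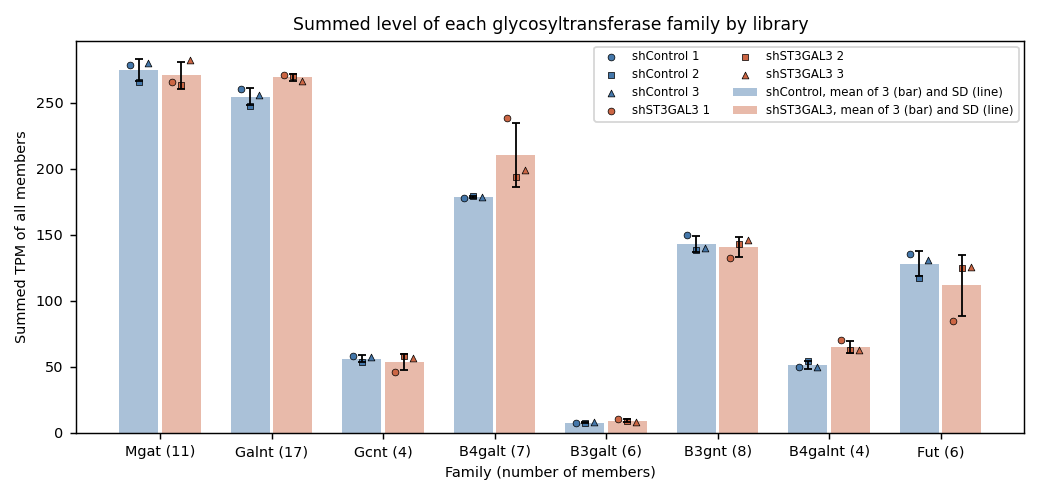
Summed TPM of all members of each family, tested or not, in each library, with bars for the mean of 3 libraries, lines for the SD and points for the libraries. The B4galt sums are 178 to 180 TPM in shControl and 194 to 238 TPM in shST3GAL3, and the lowest Fut sum, 84.7 TPM, is that of shST3GAL3 1.

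The GALNT enzymes, which start mucin-type O-linked chains, held the most members, 11 tested of 17. Of the 11, 7 had positive fold changes, with 5 genes above without overlap (against 15.7% of all genes), and 4 had negative ones, with none past the test. That count depended on the scaling. Only Galnt4 and Galnt12 stayed above with median-ratio scaling (against 12.4% of all genes), and only Galnt2 and Galnt12 with quantile normalization (against 10.5%). Galnt6 and Galnt10 overlapped under both. Summed over all 17, the level was 260, 247 and 256 TPM in shControl and 271, 270 and 266 TPM in shST3GAL3 1, 2 and 3, without overlap. Over the 11 tested genes alone the sums overlapped, at 246 to 258 TPM and 258 to 267 TPM. The abundant Galnt1 and Galnt2 differed little. Galnt1 measured 90.2, 81.9 and 84.2 TPM in shControl and 80.2, 92.9 and 86.3 TPM in shST3GAL3, and the sign of its fold change of 0.02 turned under both other scalings. Galnt2, another broadly acting starter, measured 66.8, 62.5 and 64.3 TPM in shControl and 71.2, 68.4 and 70.6 TPM in shST3GAL3, a narrow gap (log2 fold change 0.12, SE 0.07, limma adjusted p = 0.444) that overlapped with median-ratio scaling.

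Larger differences lay in less abundant Galnt genes. Galnt6 had 9.44, 7.04 and 7.45 TPM in shControl and 18.4, 10.3 and 9.75 TPM in shST3GAL3 1, 2 and 3. The gap between the groups was small beside the distance of shST3GAL3 1 from the others, with a fold change of 0.58 (SE 0.25, limma adjusted p = 0.387), or 0.31 without shST3GAL3 1. Galnt10, which prefers peptides that already carry GalNAc, had 15.9, 18.0 and 16.8 TPM in shControl and 23.8, 18.7 and 18.6 TPM in shST3GAL3. Its fold change was 0.25 (SE 0.12), and 0.14 without shST3GAL3 1. Galnt12 had 1.82, 1.92 and 2.08 TPM in shControl and 2.92, 2.32 and 2.78 TPM in shST3GAL3, without overlap under all 3 scalings (0.32, SE 0.15). Galnt4 had 6.09, 5.96 and 6.2 TPM in shControl and 6.77, 7.25 and 6.53 TPM in shST3GAL3 (0.15, SE 0.10). It shares exons on the same strand with Poc1b in GENCODE M21, so reads could have been divided between the pair, and Poc1b overlapped between the groups at 12.9 to 15.3 TPM and 12.4 to 15.8 TPM. The remaining tested members, Galnt3, Galnt7, Galnt9, Galnt11 and Galnt15, overlapped between the groups, with fold changes of -0.20 to 0.16, and that of Galnt3 turned from -0.12 to 0.09 without shST3GAL3 1.

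A group of 3 Galnt genes under the filter reached 1 TPM only in the shST3GAL3 tumours and are named after their values were seen. Galnt16 was listed at 0.41, 0.30 and 0.36 TPM in shControl and 6.18, 1.17 and 0.61 TPM in shST3GAL3 1, 2 and 3. Galnt18 was at 0.84, 0.54 and 0.76 TPM and at 3.94, 1.27 and 0.85 TPM. Galnt17 was at 0.42, 0.21 and 0.53 TPM and at 2.54, 0.68 and 0.70 TPM. In each, shST3GAL3 1 held the highest value by far. That library also had the highest fibroblast and matrix sum (7395 TPM). The same held for the endothelial, macrophage, T and NK cell, B and plasma cell, neutrophil, red blood cell and handling stress sums. Over all genes, 14762 reached 1 TPM in it, against 14365 and 14142 in shST3GAL3 2 and 3 and 13930 to 14091 in shControl. The share of all genes that reached 1 TPM only in shST3GAL3 is not given here. The part of other cell types in these values was not tested. In a fit without the filter their limma adjusted p was 0.591, 0.612 and 0.59. The other gene to reach 1 TPM in any library was B3gnt5, which starts the lacto series of glycolipids, at 1.24 TPM in shST3GAL3 1 and 0.28 to 0.69 TPM elsewhere.

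The MGAT enzymes, which branch N-linked chains, showed no common direction, with 3 of 6 tested genes positive and a median fold change near 0. Mgat1, whose GlcNAc opens the way to hybrid and complex chains, had 48.4, 43.0 and 47.1 TPM in shControl and 71.2, 49.3 and 48.8 TPM in shST3GAL3 1, 2 and 3. The groups did not overlap, but 2 of the shST3GAL3 values lay just above shControl 1, and with median-ratio scaling the groups overlapped. The fold change of 0.26 (SE 0.16) was 0.09 (SE 0.08) without shST3GAL3 1. Mgat3, which adds the bisecting GlcNAc, had 66.9, 70.1 and 75.2 TPM in shControl and 43.5, 56.5 and 70.2 TPM in shST3GAL3. Its values in shST3GAL3 1 and 2 were below the control range and that in shST3GAL3 3 was within it (log2 fold change -0.34, SE 0.17, limma adjusted p = 0.409, and -0.16 without shST3GAL3 1). Mgat4a and Mgat4b make the same beta-1,4 branch. Mgat4b, the abundant one, had 75.5, 69.0 and 76.6 TPM in shControl and 66.0, 69.1 and 82.2 TPM in shST3GAL3, with overlap (log2 fold change -0.03, SE 0.10, and 0.03 without shST3GAL3 1). The minor Mgat4a had 5.30, 4.97 and 3.38 TPM in shControl and 8.85, 6.06 and 4.10 TPM in shST3GAL3, with overlap (0.37, SE 0.27). The fold change of Mgat4a was 0.13 without shST3GAL3 1, 0.21 without shControl 3 and 0.61 without shST3GAL3 3. Mgat2, which starts the other antenna, and Mgat5, which makes the beta-1,6 branch, overlapped as deposited, with fold changes of 0.03 and -0.14. For Mgat5 the groups parted, with shST3GAL3 lower, under both other scalings.

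Of the enzymes that branch O-linked or poly-LacNAc chains, Gcnt4 had lower values and Gcnt2 overlapped. Gcnt4, a core 2 enzyme, measured 10.3, 9.85 and 10.2 TPM in shControl and 5.78, 9.22 and 8.92 TPM in shST3GAL3 1, 2 and 3. All 3 shST3GAL3 values were below shControl under all 3 scalings, 2 of them by less than 1 TPM. The fold change of -0.33 (SE 0.17, limma adjusted p = 0.425) was -0.14 (SE 0.09) without shST3GAL3 1. Gcnt2, the I-branching enzyme, measured 47.2, 43.2 and 46.8 TPM in shControl and 40.3, 48.5 and 47.4 TPM in shST3GAL3. Its fold change of -0.02 was 0.07 without shST3GAL3 1, where its values lay above those of shControl. Gcnt3 and Gcnt7 were at or under 0.22 TPM in every library.

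All 3 tested fucosyltransferase genes had negative fold changes, and without shST3GAL3 1 those of Fut10 and Fut11 were positive. Fut8 measured 119, 102 and 116 TPM in shControl and 73.2, 109 and 109 TPM in shST3GAL3 1, 2 and 3. Only shST3GAL3 1 lay outside the shControl range (log2 fold change -0.23, SE 0.17, limma adjusted p = 0.538, and -0.04 without that library). Fut10 had 9.45, 9.83 and 9.72 TPM in shControl and 5.91, 9.79 and 9.81 TPM in shST3GAL3. There, too, shST3GAL3 2 and 3 were within the shControl range, and the fold change of -0.20 was 0.02 without shST3GAL3 1. Fut11 stood at 5.84 ± 0.865 and 5.65 ± 0.371 TPM (SD, n = 3 each), and its fold change of -0.03 was 0.01 without shST3GAL3 1.

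Other genes of the pathway were read from 4 lists, and 0 of their 45 tested genes passed the test. At an unadjusted p under 0.05, 3 were higher (6.67%, against 9.19% of all genes) and 2 were lower (4.44%, against 3.78%), shares near those of all genes. Among 13 genes that make the sugar donors, 0 were higher and 1 was lower, with a median fold change of -0.06. This was Gfpt1, the first enzyme of the hexosamine route to UDP-GlcNAc, at 46.8 ± 0.814 TPM in shControl and 39.4 ± 3.72 TPM in shST3GAL3 (SD, n = 3 each, log2 fold change -0.25, limma adjusted p = 0.38). Gnpnat1, a later enzyme of that route, stood at 14.2 ± 1.78 and 11.5 ± 0.610 TPM (-0.27, limma adjusted p = 0.386). For both, all shST3GAL3 values were below shControl. Gfpt2, the other gene for the first step of the route, is named after its values were seen and lay the other way, at 1.45, 1.54 and 2.33 TPM in shControl and 14.7, 3.53 and 2.5 TPM in shST3GAL3, without overlap (1.20, SE 0.54, limma adjusted p = 0.396). Pgm3 and Uap1, which act after Gnpnat1, had log2 fold changes of 0.03 and -0.03. Of 5 transporters that carry donors into the Golgi, 0 reached that level in either direction, with log2 fold changes of 0.20 for Slc35a2, which carries UDP-galactose, and -0.17 for Slc35a3, a carrier of UDP-GlcNAc, and groups that overlapped for both.

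Of 11 genes that assemble and trim N-linked precursors, 1 was higher and 0 were lower. Man2a1, a mannosidase that acts after MGAT1, stood at 14.6 ± 1.27 and 23.9 ± 9.32 TPM (SD, n = 3 each, log2 fold change 0.62, limma adjusted p = 0.381). Its shST3GAL3 values were 34.6, 19.6 and 17.6 TPM, highest in shST3GAL3 1. It was followed by Man1c1 at 14.8 ± 0.494 and 18.8 ± 4.12 TPM (0.30). Man2a2, of the same list and named after its values were seen, overlapped between the groups, at 32.9 ± 4.79 and 30.95 ± 3.63 TPM (-0.08). In the list of 16 other extending enzymes, 2 were higher and 1 was lower, with a median of 0.01. Lfng, which extends O-fucose on Notch, stood at 39.5 ± 3.8 and 49.98 ± 3.02 TPM (SD, n = 3 each, log2 fold change 0.33, limma adjusted p = 0.38). C1galt1c1, the chaperone needed for core 1 of O-linked chains, stood at 29.3 ± 2.98 and 21.6 ± 3.51 TPM, with no overlap (-0.43, limma adjusted p = 0.38). C1galt1, of the same list and named after its values were seen, overlapped between the groups, at 11.9 ± 1.26 and 11.1 ± 1.09 TPM (-0.10, limma adjusted p = 0.704).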

How the data were processed

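Gene expression was measured by RNA sequencing of total RNA extracted with TRIzol and treated with DNase I, per the labels' protocols. The authors deposited 1 table per tumour with TPM per gene to 2 decimals, 57462 genes, 482 of them without an Ensembl ID. The unit was read from the values, which sum to 999999 to 1000001 per library. Per the submitters' processing notes, the tools were fastp, HISAT and RSEM and the build GRCm39. Not given in the sources used here are versions, parameters, annotation release and strand setting. TPM keeps no read number, so depth is unknown, precision rests on the replicates, and since each library has the same total, more of one transcript means lower values for the rest.

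Samples were grouped by title, 3 against 3. The test used limma 3.58.1 (R 4.3.3, trend option on) for log2(TPM + 1) of the 14207 genes at TPM 1 or above in at least 3 libraries. Fold changes are on that scale, which understates the change of low genes. P-values were adjusted by Benjamini-Hochberg over all genes, at 0.05. The fit was tested on 20 runs of simulated normal values with 200 changed genes each. It recovered 69.15% of changes of log2 size 1 and 92.9% of size 2. Neither smaller changes, such as those of the members, nor an outlying library were simulated. The simulation thus does not show whether changes of the members' size would be found. By rule, the named genes were the highest member of each family, its 3 smallest p, every tested member without overlap and, in each pathway list, the 2 smallest p; naming of others followed their values. The members and lists were chosen with earlier results of these data known. Samples were not paired by replicate number in the main fit, and the titles do not say whether the numbers mark pairs. Overlapping exons were read from GENCODE M21 by gene ID, which held all 37 genes; 18 share exons with another gene, 11 of them with a protein-coding one, in 4 on the same strand (Galnt2 with Gm20388, Galnt4 with Poc1b, B3gnt2 with Gm28048, B4galt2 with Ccdc24), so their values are less certain. That annotation is on GRCm38, so no coordinates were taken from it. Alternatives were another pseudocount, filter and scaling, a replicate block, library weights and leaving out each library; the counts without overlap under other scalings and without each library were added after the data were seen.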

Additional observations from a re-analysis of the deposited data

How the results depend on the processing

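The count of 0 glycosyltransferase genes past the test held in all 13 alternatives, and no named member reached an adjusted p under 0.138. The count of 1 called gene over all genes was 2 with a pseudocount of 0.1 and 8 with library weights, and ran from 1 to 3 when a library was left out. At an unadjusted p under 0.05 the count of 3 members was 6 with library weights and ran from 1 to 8 when a library was left out. Their median log2 fold change of 0.08 was 0.046 without the filter on low values, 0.029 at a mean TPM of at least 5 and 0.047 with quantile normalization, where the median of all genes was -0.05. Leaving out a library gave medians of 0.079 to 0.12. Members above without overlap, 11 as deposited, were 7 with median-ratio scaling and 6 with quantile normalization, and those below, 1 as deposited, were 2 and 3. When a library was left out they ran from 11 to 16 and from 1 to 4, against 20.2% to 23.1% and 9.38% to 17.0% of all genes. St3gal3 passed with library weights (-0.89, adjusted p = 0.0337), and its fold change ran from -0.87 to -0.73 when a library was left out. The sign turned in 15 of 319 results for the 25 members named by rule, and over all 37 tested members in 23 results of 11 genes, among them Galnt3, B4galt2, B4galt3 and Mgat2. Of those named by rule, the sign turned for Galnt1 with median-ratio scaling (-0.0033) and quantile normalization (-0.035), B3galt6 with quantile normalization (-0.074) and Gcnt2 with library weights (0.055). When a library was left out, the fold changes ran on both sides of 0 for Galnt1 (-0.036 to 0.068), Gcnt2 (-0.065 to 0.066), Fut11 (-0.096 to 0.067), Mgat4b (-0.12 to 0.034), B3gnt3 (-0.14 to 0.010) and Fut10 (-0.30 to 0.018). The causes were not tested. Same-numbered libraries did not deviate together (correlations of 0.01, -0.08 and 0.04), and 1 of 3 correlated best with its own number. With 3 libraries per group this cannot exclude a pairing. With the replicate block, 1 gene was called over all genes. In that fit 4 members had an unadjusted p under 0.05, 3 higher (against 9.73% of all genes) and 1 lower (against 3.98%). Depth is unknown, so the counting error of low values could not be worked out.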
